A study of Rattus norvegicus with 10 samples.

Results

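A set of 22 genes was higher on every array of the clones that overexpress the microRNA miR-146a than on any control array, by at least 2 times. The genes were measured in HSC-2, a Wistar rat line of hepatic stellate cells. The members were chosen on the deposited intensities: the lowest of the 6 clone arrays had to be at least 2 times the highest of the 4 control arrays and at least 100 intensity units. The rule was met by 41 of 20826 probe sets with exactly 1 gene symbol (0.197%), and the mirror rule, with the control arrays higher, by 37 (0.178%). Of the 41 probe sets, 13 belonged to 10 genes that were left out by name, namely Plagl1, Bmp4, Eya1, Foxa2, Thrb, Pappa2, Fgf13, Sema3e, Anxa3 and Pdpn. This left 28 probe sets of 22 genes, out of 14217 genes with a probe set of their own. The values that separate clones from controls chose the members and are given as a description, with no test.

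RNA of 5 lines, each taken at passages 42 and 43, was hybridised to 10 Affymetrix arrays. The controls were HSC-2 cells with no transfection and HSC-2 cells transfected with a scrambled sequence, which the series text names GFPscr. The other lines were 3 clones transfected for overexpression of rno-miR-146a, called S1, S4 and S5, each of them a single clone. All lines were grown in high glucose DMEM with serum and antibiotics. The labels do not say whether the passages of a line are independent cultures, so p-values measure only the spread between these arrays, which may be technical. An effect of the microRNA and a difference that any cloned line may show cannot be told apart. Mature miR-146a was not analysed here.

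Stellate cells of the liver hold retinoids in droplets and, after injury, turn into contractile cells that lay down and remodel matrix. Their shape and movement are set by small GTPases such as Rac, Cdc42 and Arf, which are switched on by exchange factors and off by GTPase-activating proteins. Secreted protease inhibitors, proprotein convertases and growth factors act outside the cell on the same matrix. MicroRNAs such as miR-146a lower the level or the translation of messages that pair with their seed.

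The microRNA that the clones carry is shown because it is what the clones were made to overexpress. The mature sequence from RefSeq (build GRCr8, chr10:28350053-28350074, minus strand) has its seed, bases 2 to 8, in capitals.
rno-miR-146a-5p: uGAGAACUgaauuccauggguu

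Promoters were looked at because the members were high together in the same lines. RefSeq promoters (GRCr8, 250 bases before to 50 after the start of a gene) were found by gene ID for 18 of the 22 genes. Those of Timp3 (chr7:19459509-19459808 on the minus strand), Pcsk6 (chr1:128839492-128839791 on the plus strand), Arhgef26 (chr2:148889173-148889472 on the plus strand) and Ramp1 (chr9:99212866-99213165 on the plus strand) are printed 5′ to 3′ along the gene. The first 3 genes have wide margins between clones and controls, and Ramp1 has the narrowest. The promoter of Fam13a, the gene with the widest margin, is not printed. Capitals mark GGGCGG, the core of the GC box, CCAAT and TATAAA, in either orientation.
Timp3: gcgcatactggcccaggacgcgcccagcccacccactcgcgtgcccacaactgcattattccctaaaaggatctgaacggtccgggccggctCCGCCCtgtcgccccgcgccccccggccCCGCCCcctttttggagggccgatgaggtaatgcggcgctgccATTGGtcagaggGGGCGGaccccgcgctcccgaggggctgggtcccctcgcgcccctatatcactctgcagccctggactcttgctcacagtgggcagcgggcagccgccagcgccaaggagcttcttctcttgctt
Pcsk6: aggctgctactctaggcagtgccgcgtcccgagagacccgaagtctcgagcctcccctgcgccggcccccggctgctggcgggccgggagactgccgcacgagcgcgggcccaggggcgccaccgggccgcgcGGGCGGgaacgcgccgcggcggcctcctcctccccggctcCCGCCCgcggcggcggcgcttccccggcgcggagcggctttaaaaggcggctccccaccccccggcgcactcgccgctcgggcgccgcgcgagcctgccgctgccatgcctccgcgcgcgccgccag
Arhgef26: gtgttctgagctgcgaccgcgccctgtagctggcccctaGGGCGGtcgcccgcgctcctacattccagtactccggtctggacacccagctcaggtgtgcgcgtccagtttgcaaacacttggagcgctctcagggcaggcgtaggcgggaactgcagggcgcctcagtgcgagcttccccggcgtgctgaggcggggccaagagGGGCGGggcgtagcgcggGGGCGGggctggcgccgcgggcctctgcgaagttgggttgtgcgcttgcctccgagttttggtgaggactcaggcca
Ramp1: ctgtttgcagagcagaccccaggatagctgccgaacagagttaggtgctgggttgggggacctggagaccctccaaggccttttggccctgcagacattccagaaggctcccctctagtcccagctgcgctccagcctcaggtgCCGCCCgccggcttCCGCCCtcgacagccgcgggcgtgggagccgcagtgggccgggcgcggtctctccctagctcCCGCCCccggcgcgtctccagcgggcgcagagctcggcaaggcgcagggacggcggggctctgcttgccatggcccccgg

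The motif GGGCGG, searched on both strands, was in a promoter of 14 of the 18 genes (77.8%), against 60.5% of 10959 measured genes and 36.0% of all 27457 genes with a promoter in the table. CCAAT was in 5 of 18 (27.8%), against 38.8% and 39.6%, and TATAAA in 1 of 18, Ptprd (5.56%), against 8.45% and 15.3%. Matches of different motifs can share bases and were counted separately. The median GC content of the member promoters was 70%, with quartiles of 60.8% and 75.3%, while over the measured genes the median was 60.3% and the quartiles 54% and 66.7%. Of these 18, Chn2, Fam13a, Hapln1 and Slc1a3 were the members without GGGCGG. Each of the printed promoters holds it, so they do not stand for all members. The promoter of Fam13a, the member with the widest margin, had a GC content of 54.7%. A match says only that these letters stand in the window.

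The arrays were alike in scale, with medians of 97.7 to 103.7 intensity units, and 14.6% of all values were exactly 20, the floor of the deposited table. Vim, the filament protein of mesenchymal cells, was at 21124 to 23549.9 on the control arrays and 22676 to 24794 on the clone arrays, and Col1a1, the main fibrillar collagen of stellate cells, at 17936 to 24084 on the control arrays and 20191 to 22766 on the clone arrays. Gfap, a marker of quiescent rat stellate cells, stayed between 28.1 and 38.1 on all arrays. The summed intensity of 16 stellate cell markers was 102590 to 127694 on the control arrays and 113361 to 121555 on the clone arrays. The genes left out by name all met the rule but are in none of the counts of list genes that met it. They are not in the gene lists at all, so the numbers of measured genes, medians and summed intensities of the lists lack them too. The hepatocyte, leukocyte, endothelial and biliary lists each held no gene that met the rule. Of 16 mesothelial markers none met it, but their summed intensity was 6516 to 8634 on the control arrays and 10769 to 14453 on the clone arrays, and 4 of them (Gpm6a, Ezr, Alcam and Rspo1) had all clone arrays above all control arrays. The list's median clone minus control difference was 0.51 on the log2 scale, against -0.02 over all measured genes. Of its keratins, Krt8 was at 60.4 to 120.3 on the control arrays and 102 to 375 on the clone arrays, and Krt18 and Krt19 were at or near the floor. In all, 7 of the 16 had a median under 100. The part of these markers in the values of the members was not tested. In bulk RNA, fewer cells of a type and less RNA per cell cannot be told apart.

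Timp3, a metalloprotease inhibitor that binds to the extracellular matrix, was represented by 4 probe sets, and all 4 met the rule. On the second of them by margin, the untransfected line was at 117 and 252 intensity units at passages 42 and 43 and the scrambled line at the floor on both arrays. Clone S1 was at 2299 and 2981, S4 at 1004 and 1235 and S5 at 1142 and 1363. The lowest clone array was thus 3.98 times the highest control array. The geometric means differed by at least 26.3-fold, a bound because 2 control arrays were at the floor. Against the untransfected line alone the fold was 8.97, and against the scrambled line it was at least 76.9. The other probe sets gave clone ranges of 187 to 639.8, 1384 to 3909 and 164 to 423 against control ranges of 20 to 41.9, 41.7 to 375 and 44.2 to 56.3. S1 was the highest clone on each of the 4 probe sets.

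The other Timp genes of the list of matrix proteases and inhibitors had other patterns. Timp1 was at 2591 to 3879 on the control arrays and 2743 to 3019 on the clone arrays, Timp2 at 4893 to 6809 on the control arrays and 6426 to 9305 on the clone arrays, and Timp4 near the floor throughout. Of the 41 measured genes of that list, 2 met the rule, Timp3 and Pcsk6, and 1 met the mirror rule, Mmp2, a gelatinase, at 4041 to 8038 on the control arrays and 179.9 to 920.3 on the clone arrays. Over all 13286 measured genes, each taken from its brightest probe set, 30 met the rule (0.226%) and 27 the mirror rule (0.203%). The 30 include genes that were left out by name, while the list counts do not. The list's median clone minus control difference was 0.0082 on the log2 scale, against -0.02 over all measured genes. Timp1, Timp2, Timp4 and Mmp2 are named here after their values were seen.

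Pcsk6, a proprotein convertase that cleaves precursors of the TGF-beta family, measured 136 and 217 in the untransfected line and 90.5 and 73.8 in the scrambled line at passages 42 and 43. The clones were at 904 and 1478 (S1), 799.7 and 1280.4 (S4) and 919 and 1397 (S5). All 6 clone arrays were at least 3.69 times the highest control array, and within each clone passage 43 was the higher array. Its mean log2 level was 10.10 ± 0.10 (SD, n = 3 clones) and 6.89 ± 0.76 (SD, n = 2 lines) in the controls. The related convertases of the list did not meet the rule, with Furin at 182 to 278 on the control arrays and 263 to 383 on the clone arrays and Pcsk5 at 32.1 to 116 on the control arrays and 103 to 166 on the clone arrays, both named after their values were seen.

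Gas6, the secreted ligand of the receptor tyrosine kinases Tyro3, Axl and Mertk, was at 895 and 806 in the untransfected line and 491 and 709 in the scrambled line. In the clones it reached 1996 and 2230.2 (S1), 3134 and 2817 (S4) and 2194 and 2278 (S5). S4 was the highest clone at both passages, and the groups did not overlap, as the rule requires. Its other probe sets were less separated: 1 lay at 497 to 1248 on the control arrays and 842 to 2572 on the clone arrays, and another at 103 to 139 on the control arrays and 103 to 149 on the clone arrays, so both overlapped between the groups. Of 66 measured genes of growth factors, receptors and inhibitors, a list without the genes left out by name, Gas6 alone met the rule. Its receptor Axl was at 2139 to 2471 on the control arrays and 2413 to 3177 on the clone arrays, and Mertk lay at or below 32.5 on all arrays, both named after their values were seen. Gas6 is also in the list of 18 measured portal fibroblast and smooth muscle markers, of which it alone had all clone arrays above the controls while 3 had all below. Their summed intensity was 13855 to 18120 on the control arrays and 6892 to 13100 on the clone arrays, and its part in the Gas6 values was not tested.

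Hapln1, a link protein that joins hyaluronan to proteoglycans, measured 128 and 54.7 in the untransfected line and 131 and 48.6 in the scrambled line at passages 42 and 43. In the clones it was at 292 and 781 (S1), 417 and 453 (S4) and 398 and 566 (S5). Its lowest clone value and its highest control value were thus both from passage 42. Its 2 other probe sets also had all clone arrays above all control arrays, at 20 to 25.2 on the control arrays and 71.7 to 254 on the clone arrays and at 20 to 23.7 on the control arrays and 49.5 to 173 on the clone arrays, with lowest clone values under 100. Pdgfrl, a secreted protein that resembles a PDGF receptor, lay at 823 to 925 in the clones and 199.8 to 372 in the controls. The clone arrays of Pdgfrl were close together, with an SD of 0.054 on the log2 scale between the 3 clones.

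**Figure D1:**
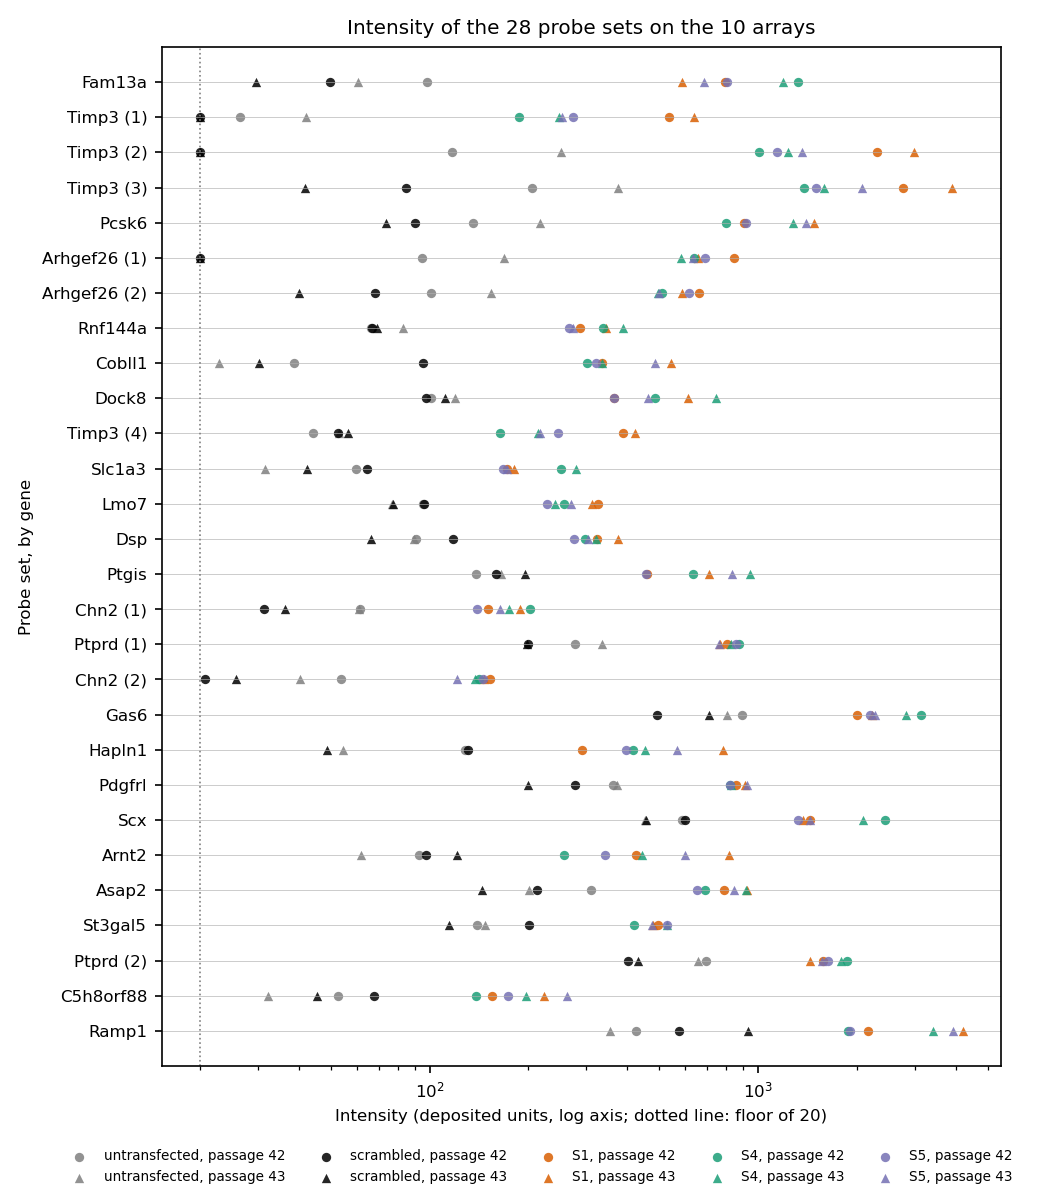
Deposited intensity (x axis, log scale) of each of the 28 probe sets (y axis, from the largest to the smallest margin between clones and controls) on the 10 arrays, with colour for the line and shape for the passage. The lowest clone array of each probe set is 2.01 to 5.96 times its highest control array, and both scrambled arrays of 3 probe sets sit on the dotted floor of 20.

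The order of the members by role was chosen after they were known. Fam13a, which carries a GTPase-activating domain, had the largest margin of all members, 5.96 times. It was at 98.2 and 60.6 in the untransfected line, 49.6 and 29.5 in the scrambled line, 796 and 586 (S1), 1322 and 1192 (S4) and 807 and 685 (S5). In all 5 lines the passage 43 array was the lower. The geometric means differed 15.8-fold, from a log2 level of 5.76 ± 0.71 (SD, n = 2 lines) in the controls to 9.75 ± 0.48 (SD, n = 3 clones).

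Arhgef26, a guanine nucleotide exchange factor, met the rule on both of its probe sets. The first was at 95.1 and 168 in the untransfected line and at the floor on both scrambled arrays, and the clones ranged over 583 to 846. Its clone mean was 5.30 times that of the untransfected line and at least 33.5 times that of the scrambled line. The second probe set was at 101 and 154 (untransfected), 68.1 and 40.1 (scrambled) and 497 to 662 (clones). On both probe sets the scrambled line was the lower control.

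Dock8, an exchange factor for Cdc42 best known in leukocytes, was at 101 and 119.8 in the untransfected line and 97.8 and 111 in the scrambled line. The clones had Dock8 at 365 and 611 (S1), 485 and 746 (S4) and 365 and 464 (S5). A second Dock8 probe set, at 35.6 to 55.9 on the control arrays and 42.7 to 54.9 on the clone arrays, overlapped between the groups. In the list of 14 measured macrophage and leukocyte markers, 0 had all clone arrays above the control arrays and 2 had all below, and the summed intensity was 1286 to 1444 in the controls and 1244 to 1426 in the clones. The sums of the leukocyte markers overlapped between the groups.

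Chn2, beta-chimaerin, which switches off Rac, met the rule on 2 probe sets, at 139.6 to 203 and 121 to 153 in the clones against 31.2 to 61.3 and 20.7 to 53.6 in the controls. On another probe set, at 37.7 to 53.8 on the control arrays and 72.6 to 95.9 on the clone arrays, the groups were apart by less than 2 times. Asap2, a GTPase-activating protein for Arf, lay at 310.5 and 201 (untransfected) and 212 and 144 (scrambled) against 654 to 924 in the clones. Cobll1, an actin-binding protein with a WH2 domain, was at 38.6 and 22.9 in the untransfected line and 95.4 and 30.4 in the scrambled line. The clones had Cobll1 at 335 and 542 (S1), 301 and 336 (S4) and 322 and 485 (S5). Its highest control value came from the scrambled line at passage 42.

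Dsp, desmoplakin, which ties intermediate filaments to desmosomes, was at 91.1 and 89.5 in the untransfected line and 118 and 66.2 in the scrambled line. The clones ranged over 276 to 374, at least 2.34 times the highest control array. A second Dsp probe set lay at 55.7 to 79.1 on the control arrays and 54.5 to 69.4 on the clone arrays and showed no separation. Lmo7, a LIM domain protein of adherens junctions, was at 77.1 to 96.1 in the controls and 228 to 326 in the clones on the probe set that met the rule. Its 3 other probe sets had the same order with smaller margins, at 432 to 1212 on the control arrays and 1744 to 2472 on the clone arrays, at 837 to 2101 on the control arrays and 3263 to 4591 on the clone arrays and at 38.3 to 79.3 on the control arrays and 104 to 151 on the clone arrays.

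Ramp1, which joins the calcitonin receptor-like receptor to form the receptor for CGRP, had the smallest margin of the members, 2.01 times. It was at 424 and 354 in the untransfected line and 576 and 936 in the scrambled line at passages 42 and 43. The clones were at 2165 and 4203 (S1), 1881 and 3405 (S4) and 1912 and 3923 (S5). Its small margin came from the scrambled array of passage 43 and the S4 array of passage 42, and the geometric means differed 5.17-fold. Against the untransfected line alone the fold was 7.11 and against the scrambled line 3.75.

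Ptprd, a receptor-type tyrosine phosphatase, met the rule on 2 probe sets, with clones at 761 to 874 and 1436 to 1868 and controls at 199 to 335 and 403 to 696. Another probe set, at 26.9 to 30.4 on the control arrays and 28.9 to 36.8 on the clone arrays, was near the floor. Slc1a3, a glutamate transporter, was at 59.6 and 31.5 (untransfected), 64.6 and 42.4 (scrambled), 172 and 180.3 (S1), 251 and 279 (S4) and 167 and 172 (S5), so S4 was highest. The 2 other probe sets of Slc1a3 did not follow it in size. They were at 105 to 268 on the control arrays and 105 to 145 on the clone arrays, where the clone mean was the lower, and at 38.4 to 62.3 on the control arrays and 63.4 to 102 on the clone arrays.

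Ptgis, the synthase that makes prostacyclin, was at 139 and 165 in the untransfected line and 159.7 and 195 in the scrambled line. The clones had Ptgis at 458 and 711 (S1), 634 and 942 (S4) and 456 and 836 (S5), with the passage 43 array the higher in every line. In the list of lipid metabolism, of which 52 genes were measured, Ptgis alone met the rule and 3 genes met the mirror rule. Among these was Ptgs1, the constitutive cyclooxygenase that makes the substrate of Ptgis, at 1154 to 2483 on the control arrays and 121 to 397 on the clone arrays. The inducible enzyme Ptgs2 overlapped between the groups, at 105 to 481 on the control arrays and 341 to 982 on the clone arrays, and it and Ptgs1 are named after their values were seen. St3gal5, which makes the ganglioside GM3, was at 114 to 201 in the controls and 419 to 529 in the clones, whose means lay within 1.07-fold of each other.

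Of the transcription factors, Scx, scleraxis, the bHLH factor of tendon progenitors, was at 589 and 454 in the untransfected line and 600.2 and 455 in the scrambled line, nearly the same in both. In the clones it was at 1439 and 1371 (S1), 2431 and 2086 (S4) and 1320.0 and 1445 (S5). Arnt2, the bHLH-PAS partner of several regulated factors, was at 92.9 and 61.8 in the untransfected line and 97.8 and 121 in the scrambled line. The clones had Arnt2 at 425 and 817 (S1), 257 and 443 (S4) and 342 and 601 (S5). Its second probe set had a smaller margin, at 73.0 to 92.6 on the control arrays and 97.1 to 138 on the clone arrays. Rnf144a, a ubiquitin ligase, was at 66.2 to 82.8 in the controls and 266 to 387 in the clones. Both of its other probe sets kept the clones above the controls, at 62.5 to 74.1 on the control arrays and 118 to 175 on the clone arrays and 20 to 23.7 on the control arrays and 40.9 to 59.1 on the clone arrays. C5h8orf88, for which no role is given, was at 32.3 to 67.8 in the controls and 138 to 262 in the clones.

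Over the 28 probe sets, the geometric means of clones and controls differed from 2.93-fold to at least 26.3-fold, with a median of 4.35. The values of 3 probe sets, 2 of Timp3 and 1 of Arhgef26, are bounds because the scrambled line was at the floor. Of 16 further probe sets for 10 of the genes, 10 had all clone arrays above all control arrays, as 4.08% of all probe sets with 1 symbol did (3.47% had all below), and 13 had the higher clone mean. The rule was applied to these 16 as well and none met it, so they were set apart by the same values. They were also hybridised with the same RNA and are no separate evidence. Just inside the 2-fold limit stood Ramp1 at 2.01, C5h8orf88 at 2.04, the second Ptprd probe set at 2.06 and St3gal5 at 2.09. Just outside stood Fntb at 1.96, Mfsd6 at 1.94, Pla2r1 at 1.76 and Anxa8 at 1.73. At the limit of 100 units, the lowest clone value of the second Chn2 probe set was 121 and that of Rnf144b, which met the 2-fold limit, was 96.6.

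The members did not sit next to each other in the genome. In the order of 13239 measured genes of GRCr8, none of the 44 genes that flank a member was a member, and the closest pair, Asap2 and Rnf144a, was 12 genes apart. The flanking genes had a median clone minus control difference of 0.03 on the log2 scale.

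The first comparison, a difference that the rule did not use, set the scrambled against the untransfected line. The rule did use the highest of these arrays, and the shares of all probe sets given beside the members were not matched for level. Timp3, Arhgef26, Chn2, Ptprd and Pdgfrl were lower in the scrambled line, so these genes differed between the controls as well as between clones and controls. In all, limma called 9 of the 28 probe sets, all lower in the scrambled line, against 6.1% of all 27520 tested probe sets in either direction, 2.23% higher and 3.87% lower. At an unadjusted p under 0.05 there were 13 of 28, against 22.5% of all. The 9 probe sets belong to 5 genes and are not independent. The median scrambled minus untransfected difference of the 28 was -0.32 on the log2 scale, and 10 of the 28 were above 0.

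Timp3 was at -3.10 (SE 0.32, limma adjusted p = 0.00246) on its second probe set, where the scrambled line was at the floor, and so at least 8.57-fold lower. On the third it was at -2.22 (SE 0.39, limma adjusted p = 0.0186). On the first, the scrambled line was also at the floor, and the untransfected line was at least 1.67-fold higher, which did not pass (limma adjusted p = 0.0997 on the floored values). On the fourth the difference was 0.17 (SE 0.16, limma adjusted p = 0.58), with both lines between 44.2 and 56.3 units. The call on the third was lost without the untransfected or the scrambled array of passage 43, with adjusted p = 0.119 and 0.0823 by limma.

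Arhgef26 was at least 6.32-fold lower on its first probe set, at -2.66 (SE 0.25, limma adjusted p = 0.00156), and at -1.26 (SE 0.27, limma adjusted p = 0.039) on its second, which lost its call without any of 8 of the 10 arrays (limma adjusted p up to 0.192). Chn2 was at -0.86 (SE 0.15, limma adjusted p = 0.0188) and -1.01 (SE 0.17, limma adjusted p = 0.0159), and Ptprd at -0.62 (SE 0.12, limma adjusted p = 0.026) and -0.70 (SE 0.10, limma adjusted p = 0.00839). The first Ptprd probe set lost its call without any of 7 of the 10 arrays (limma adjusted p up to 0.104), the first Chn2 probe set without the untransfected array of passage 43 or the scrambled array of passage 42 (limma adjusted p = 0.0934 and 0.107), and the second without the scrambled array of passage 42 (limma adjusted p = 0.0947). Pdgfrl was at -0.64 (SE 0.15, limma adjusted p = 0.0499) and lost its call without any of 9 of the 10 arrays (limma adjusted p up to 0.177). For Fam13a, the difference was -1.01 (SE 0.30, limma adjusted p = 0.0957), and for Pcsk6 -1.07 (SE 0.36, limma adjusted p = 0.126). Fitted with a replicate block for passage, these 2 and the first Timp3 probe set were called, at limma adjusted p = 0.00974, 0.0297 and 0.0398.

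At the other end, Ramp1 was at 0.92 (SE 0.46, limma adjusted p = 0.292) and Cobll1 at 0.85 (SE 0.52, limma adjusted p = 0.382), both higher in the scrambled line by more than their SE but not called. Lmo7, Scx, Dsp, Hapln1 and Dock8 lay closest to 0 on their member probe sets, between -0.08 and 0.02. Their SE were 0.15, 0.17, 0.24, 0.62 and 0.28, which leaves room for differences that these arrays could not show. With the replicate block for passage their SE were 0.15, 0.14, 0.24, 0.63 and 0.15. The other probe sets of Lmo7 had the scrambled line higher, with mean log2 levels of 9.91, 10.89 and 6.04 against 8.97, 9.95 and 5.45 in the untransfected line.

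**Figure D2:**
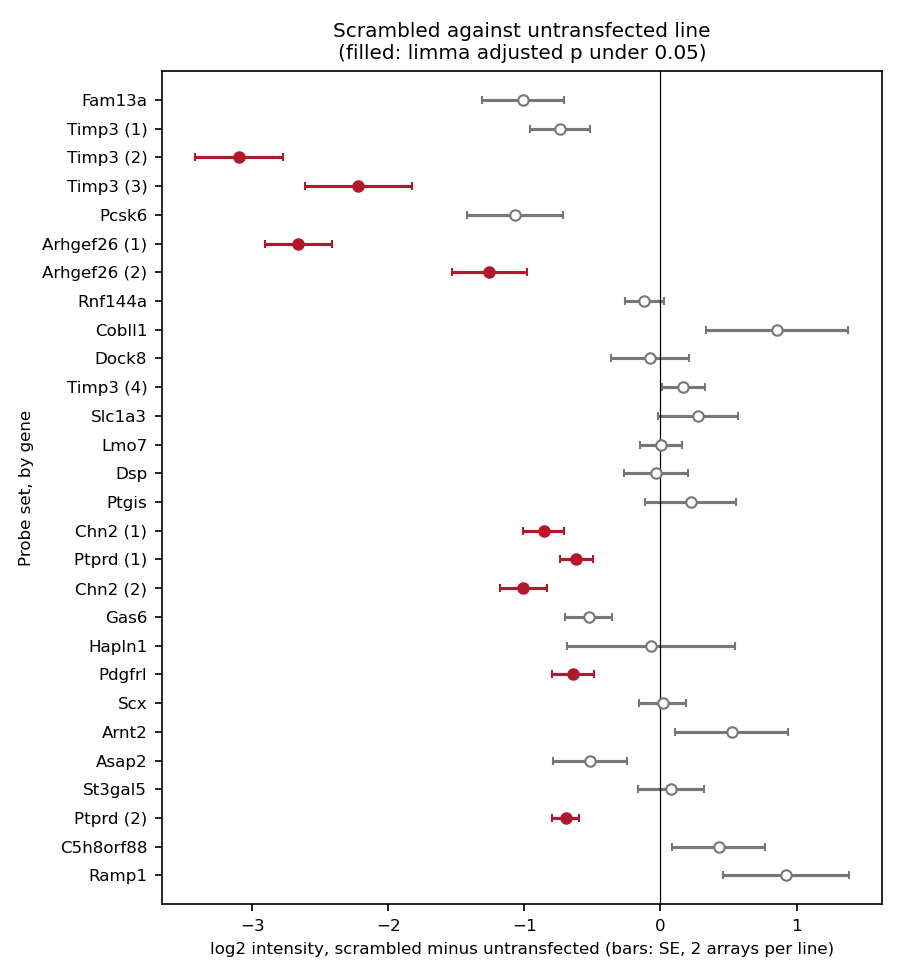
Difference in log2 intensity between the scrambled and the untransfected line (x axis, with SE) for the 28 probe sets (y axis). The 9 filled points, from Timp3, Arhgef26, Chn2, Ptprd and Pdgfrl, passed the limma threshold and all lie below 0.

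Whether the clones differed from each other was asked with an F test. Timp3 had the widest spread, with S1 above S4 by 1.11 to 1.44 on the log2 scale over its 4 probe sets and S5 nearer to S4. Fam13a was higher in S4 than in S1 by 0.88, and Scx lower in S5 than in S4, at -0.71. None of the 28 passed by limma (0 of 28, and 9 of 27520 probe sets in all, 0.0327%). At an unadjusted p under 0.05 there were 7 of 28, namely the 4 probe sets of Timp3 with Fam13a, Gas6 and Scx, against 2.72% of all probe sets. The lowest adjusted p was 0.254, for the fourth Timp3 probe set, and with the replicate block the count was also 0.

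The clone means of a probe set lay 1.07-fold to 2.71-fold apart, with a median of 1.29. On the log2 scale the median range was 0.37, against 0.14 over all tested probe sets. The members were at least 100 units on every clone array, while the tested probe sets include some with arrays at the floor. The comparison was not matched for level. S1 was the highest clone for 11 genes, S4 for 9 and S5 for 2, each taken from its probe set of widest margin. Besides Timp3, S1 led in Arnt2, where its mean was 1.75 times that of S4, and S4 led in Slc1a3, 1.56 times that of S5. Neither passed the test.

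**Figure D3:**
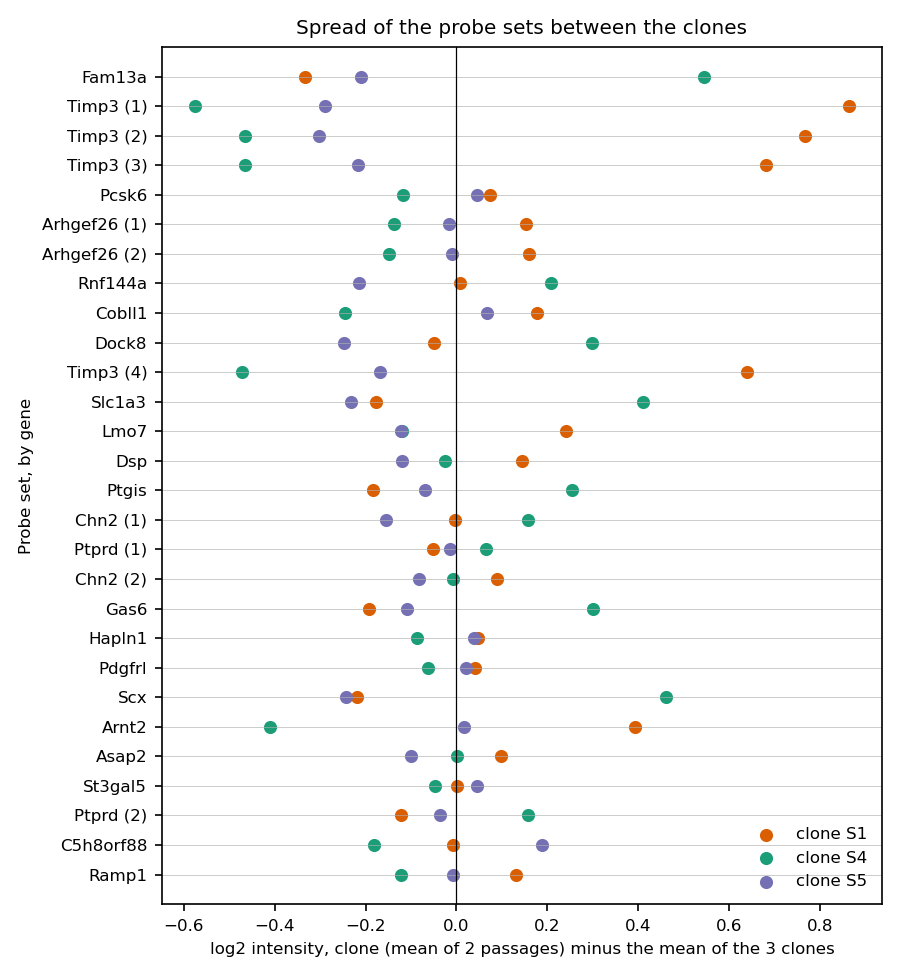
Log2 intensity of each clone, as the mean of its 2 passages, minus the mean of the 3 clones (x axis) for the 28 probe sets (y axis). S1 stands to the right on all 4 Timp3 probe sets and S4 on Fam13a, Scx, Slc1a3 and Gas6, while the clones lie close together for St3gal5, Pdgfrl and Hapln1.

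The second comparison, also a difference that the rule did not use, set passage 43 against passage 42. These arrays too chose the members, through the lowest clone and the highest control value. In the clones, Ptgis and C5h8orf88 rose, by 0.69 (SE 0.09, limma adjusted p = 0.034) and 0.54 (SE 0.07, limma adjusted p = 0.039) on the log2 scale. They were 2 of 28 probe sets called, against 1.16% of all probe sets in either direction, 0.723% higher and 0.436% lower. Both calls were lost when any clone array was left out (limma adjusted p up to 0.406), and without any 1 control array 5 of the 28 were called, while the calls over all probe sets went from 319 to 935.

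Ptgis was 1.55, 1.49 and 1.84 times as high at passage 43 in S1, S4 and S5, and 1.19 and 1.22 times in the untransfected and scrambled lines. For C5h8orf88 the clone ratios were 1.43, 1.42 and 1.52, and the control ratios 0.615 and 0.667. Ramp1 had ratios of 1.94, 1.81 and 2.05 in the clones, a change of 0.95 (SE 0.17, limma adjusted p = 0.0664). Arnt2, at 0.85 (SE 0.16, limma adjusted p = 0.0712), Dock8, at 0.57 (SE 0.10, limma adjusted p = 0.0564), and Pcsk6, at 0.66 (SE 0.17, limma adjusted p = 0.132), had the same direction in each clone and did not pass.

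In the clones, 15 of the 28 probe sets were higher at passage 43 in all 3 lines and 6 were lower in all 3, against 22.6% and 23.7% of all tested probe sets. The median change of the members was 0.13 on the log2 scale. In the control lines none of the 28 was called by limma, and 1 of 27520 was (0.00363%). At an unadjusted p under 0.05 there were 9 of 28, against 18% of all. The control changes with the lowest adjusted p were those of Fam13a, -0.72 (SE 0.10, limma adjusted p = 0.0782), Slc1a3, -0.76 (SE 0.11, limma adjusted p = 0.0782), and C5h8orf88, -0.64 (SE 0.09, limma adjusted p = 0.0782).

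The difference between the passage changes of clones and controls was tested directly and passed for 0 of 28 by limma (5 of 27520 in all, 0.0182%), with 11 of 28 at an unadjusted p under 0.05 against 8.35% of all. For 6 probe sets every clone was higher and both control lines lower at passage 43, namely those of Cobll1, Slc1a3, Dsp, Hapln1, Asap2 and C5h8orf88. The same order held for 3.1% of all tested probe sets. Hapln1 had the widest gap, with a difference of 2.01 (SE 0.36, limma adjusted p = 0.365). It was 2.67, 1.09 and 1.42 times as high at passage 43 in S1, S4 and S5, and 0.426 and 0.371 times in the untransfected and scrambled lines. C5h8orf88 had the lowest adjusted p, with 1.18 (SE 0.12, limma adjusted p = 0.155).

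**Figure D4:**
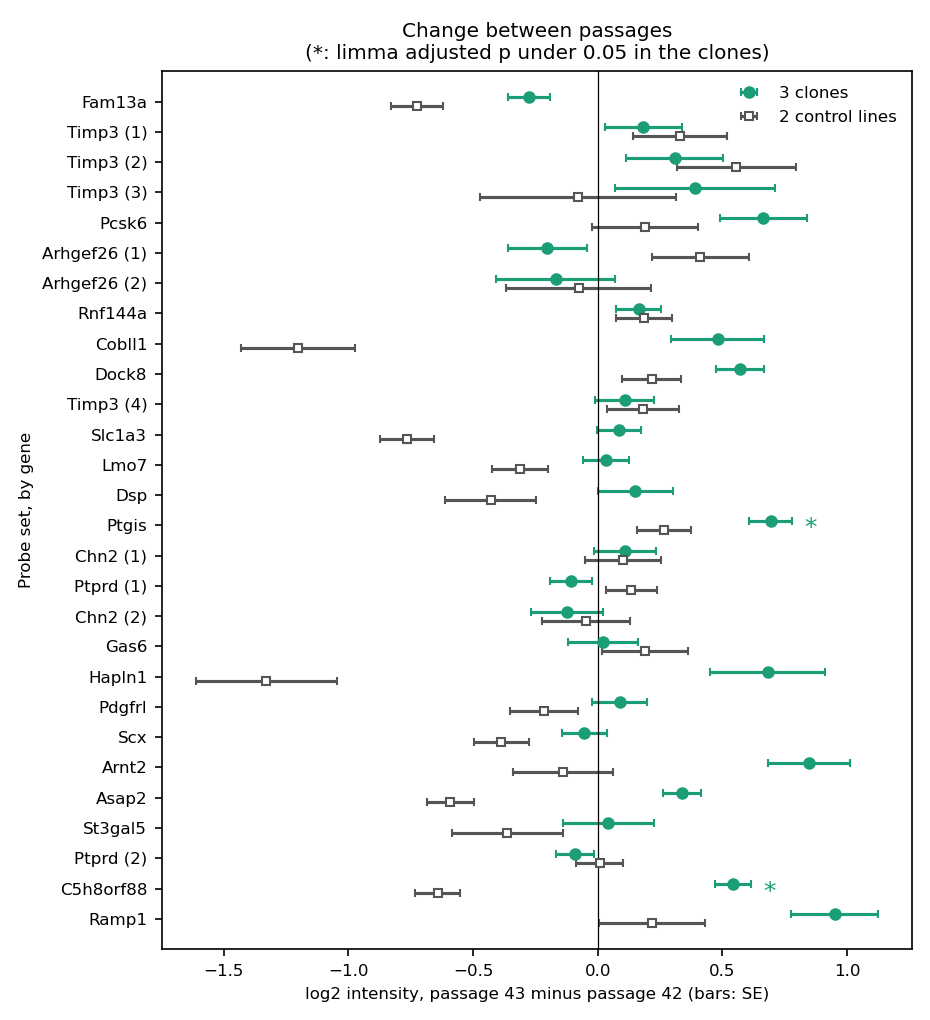
Change in log2 intensity from passage 42 to passage 43 (x axis, with SE) for 3 clones (filled) and 2 control lines (open), over the 28 probe sets (y axis). The clone changes of Ptgis and C5h8orf88, marked with a star, passed the limma threshold, and the control changes of Hapln1 and Cobll1 lie farthest below 0.

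Membership depended on which arrays entered the rule. Applied to passage 42 alone it chose 43 probe sets, of which 35 also met it at passage 43 (81.4%), while at passage 43 alone it chose 126, of which the same 35 met it at passage 42 (27.8%). Chosen on 2 clones, 28 of 32 also met it in S1 (87.5%), 28 of 48 in S4 (58.3%) and 28 of 31 in S5 (90.3%). Against the scrambled line alone 116 probe sets met the rule, and 28 of them also against the untransfected line (24.1%). Against the untransfected line alone 91 did, and 28 of them also against the scrambled line (30.8%). In the splits by line, meeting the rule on both parts is the full rule, so the 28 are the members themselves. The splits by passage also use arrays that chose the members. These shares describe the rule and are no replication. The lowest clone value of a member came from the S4 array of passage 42 for 11 probe sets and from the S5 array of passage 42 for 9.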

How the data were processed

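Expression was read from 10 arrays, 2 passages of each of 5 lines. The table holds intensities that the authors deposited in linear units, and the tool named for them, per the submitters' processing notes, is RMA. Its version and its return to linear units were not given in the sources used here. Because the files hold linear values, log2 was taken before each test. The lowest value is 20 and holds for 14.6% of values, and array medians were 97.7 to 103.7. The number of arrays limits the precision. Gene names came from the platform annotation: of 31099 probe sets, 20826 had 1 symbol, 436 several and 9780 none, and 57 were array controls. All 22 member genes matched the GRCr8 gene table by gene ID.

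The members, the gene lists and the tests were chosen with earlier results of these data known. Tests used limma 3.58.1 in R 4.3.3 on log2 intensities of 27520 probe sets above the floor on at least 1 array, with eBayes moderation, and calls were made at a Benjamini-Hochberg adjusted p under 0.05. Comparisons between lines had a coefficient for each line and 5 residual degrees of freedom. Passage was tested within clones and within control lines with line as a block (3 residual degrees of freedom). The levels of clones and controls were not tested against each other, only their passage changes. Passage deviations of the lines correlated at 0.136 to 0.648 over all 10 pairs, above 0.1 in every pair, so the passage numbers pair the arrays. The comparisons between lines nevertheless carried no passage term, and a replicate block for passage was an alternative. The procedures were tested on simulated data. Named genes were the members with the largest margins, those at the limits of the rule, those called in a test, those in a gene list, and those with several probe sets. The other members were named by role. Lists gave counts and medians only, and the lists with no member are summarised below. Alternatives were quantile normalisation, a mean of at least 100, an intensity trend, log2(value + 16), a replicate block, other limits of the rule, and leaving out each array or line.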

Additional observations from a re-analysis of the deposited data

How the results depend on the processing

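The number of member probe sets was 28. It was 65 with a fold limit of 1.5 and 10 with a limit of 3, and without 1 array it lay between 28 and 42. Without the untransfected line it was 116, without the scrambled line 91 and without S4 48. Passage 42 alone gave 43 and passage 43 alone 126. Level limits of 50 and 200, both scalings, and leaving out S1 or S5 kept it within 1.5 times. The count of 9 called between the scrambled and the untransfected line was 4 to 9 without 1 array, the 4 without the untransfected array of passage 43, and 12 when passage entered as a replicate block, where 3602 of all probe sets were called instead of 1679. The block changed no call between clones among the members, 0 in each fit, while over all probe sets it gave 25 instead of 9. The count of 2 for passage in the clones was 5 with the filter on mean intensity and 0 to 5 without 1 array, where all probe sets gave 758 and 0 to 935 instead of 319. For passage in the control lines the 0 became 4 with that filter, and 0 to 4 without 1 array, the 4 without either scrambled array. All probe sets then gave 283 and 1621 instead of 1. Leaving out an array also removes its line from the passage change. Many settings could not change the direction of a call. The scrambled minus untransfected difference stays the same without a clone array, and the clone passage change without a control array. An intensity trend, the filter on mean intensity and the replicate block also leave a difference as it was. Of the single calls named, 69 of 110 held when 1 array was left out and 51 of 52 under the other settings, the exception being Pdgfrl with an intensity trend (adjusted p = 0.0557), and none changed direction.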

Other observations

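Exph5, Ptprf, Rab11fip1 and Rnf144b met the 2-fold limit and stood closest below the limit of 100 units. Exph5, which binds Rab27, was at 23.2 to 33.4 on the control arrays and 91.6 to 221 on the clone arrays. Ptprf, a receptor-type phosphatase related to Ptprd, was at 20 to 31.9 and 91.5 to 199. Rab11fip1, an effector of Rab11, was at 20 to 32.7 and 78.4 to 113. Rnf144b, a paralogue of the member Rnf144a, was at 24.8 to 47.5 and 96.6 to 142.

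Among the mesothelial markers, Alcam, an adhesion molecule, was at 596 to 872 on the control arrays and 1304 to 2886 on the clone arrays, and Gpm6a, a membrane glycoprotein, at 134 to 202 on the control arrays and 332 to 614 on the clone arrays.

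Among the 44 genes that flank a member, 5 differed between clones and controls by at least 1 on the log2 scale, without a test. The share of all measured genes that differed by as much was not counted, so these 5 are a description only. Prr15, beside Chn2, had medians of 24.98 on the control arrays and 108 on the clone arrays. Grb14, beside Cobll1, had 289 on the control arrays and 659.9 on the clone arrays, and Mtus1, beside Pdgfrl, 108 on the control arrays and 249 on the clone arrays. Rasa3, beside Gas6, went the other way, with 326 on the control arrays and 141 on the clone arrays, as did Vcan, beside Hapln1, with 2235 on the control arrays and 949 on the clone arrays.

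The gene lists without a member had medians of clone minus control log2 difference between -0.08 and 0.14, the mesothelial list aside. They were TGF-beta and BMP signalling, contractile, collagen and matrix, retinoid, Wnt and Notch, axon guidance and adhesion, inflammatory, hepatocyte, leukocyte, endothelial, biliary, stellate, developmental transcription factor and cell cycle genes. The 10 genes left out by name, Bmp4 among them, met the rule but do not count as members here. They are not in these lists either, so the medians lack them. In the list of ion channels and transporters, with 88 measured genes, Slc1a3 met the rule, though not on its brightest probe set.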
